A study of Rattus norvegicus with 6 samples.

Results

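Zinc-handling genes of rat pancreas were followed across 3 groups of animals. The 7 genes were chosen by name from a deposited table of 34001 genes, and all 7 were found in it. They are the metallothioneins Mt2A and Mt3, the zinc exporters Slc30a1 and Slc30a2, the zinc importers Slc39a5 and Slc39a14, and Mtf1, which encodes the zinc-sensing transcription factor of metallothionein genes. Of the 7, 4 passed a filter of a mean of at least 1 TPM over the 6 libraries (Mt2A, Slc30a1, Slc39a5 and Slc39a14), while Slc30a2 and Mt3 lay below it and Mtf1 was listed at 0 in every library. Mt2A was the member whose mean stood furthest above the Control rats in both injured groups. Slc39a5 held a nearly fixed level in 4 of 6 libraries, and Slc30a1 and Slc39a14 lay close to the median of the genes that passed the filter.

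Metallothioneins are small, cysteine-rich proteins that bind zinc and copper, and their genes are switched on by free zinc through Mtf1 and by inflammatory and glucocorticoid signals. Exporters of the Slc30 family move zinc out of the cytosol, across the cell membrane or into vesicles, and importers of the Slc39 family move it into the cytosol. The exocrine pancreas has a large turnover of zinc, since acinar cells secrete zinc with the contents of their zymogen granules and the carboxypeptidases among their enzymes carry zinc in the active site.

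All animals were Sprague-Dawley rats, an outbred strain, with 2 rats in each group, and pancreatic tissue was taken after 24 h. In the TP+hucMSC-Exs group an impactor (3 cm2, 10 kg) struck and squeezed the pancreas, and exosomes from human umbilical cord mesenchymal stem cells were given by tail vein at 10 μg per 100 g of body weight. Exosomes are small membrane vesicles that cells release. The TP group (traumatic pancreatitis) had the same crush and 1 ml of saline, and the Control group had the abdomen opened, the pancreas handled with swabs and 1 ml of saline. The sources used here state no age, sex or batch. The values were TPM, a transcript abundance scaled by gene length and to the same total in each library, so that levels can be compared between genes and depth is unknown.

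The libraries differed as wholes. The median of the 11477 genes that passed the filter lay at 0.97 and 1.22 (log2) over the Control mean in the TP+hucMSC-Exs libraries, and at 0.00 and 3.00 in TP replicates 1 and 2. A list of 26 digestive enzyme genes took 66.0% and 60.2% of TPM in the TP+hucMSC-Exs libraries, 79.1% and 21.2% in TP rats, and 85.4% and 81.7% in the Control libraries. The 10 acinar markers were all above 0 in every library, and Prss1, a trypsinogen, was lowest in TP replicate 2 at 44279 TPM. TP replicate 2 stood apart: 8 adipocyte markers summed to 6576 TPM there, against 19.9 TPM in TP replicate 1, 32.1 and 46.5 TPM in the TP+hucMSC-Exs libraries and 19.1 and 42.1 TPM in the Control libraries. In whole tissue, fewer cells of a type and less RNA per cell cannot be told apart. Members that passed the filter are given below in TPM and against the median gene, and most other genes in TPM only.

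The sequences before the metallothionein genes are shown first, because the metal response element, the short motif that Mtf1 binds, lies there. Of the 7 genes, 6 had a promoter entry in RefSeq (build GRCr8); Slc39a14 was the gene without one. The motif was searched as TGCACNC or TGCGCNC on both strands in the 250 bases before each gene's start, with overlapping matches counted separately. Matches are in capitals, and each sequence is written in the direction of its gene.
Mt2A (chr19:10838709-10838958, minus strand): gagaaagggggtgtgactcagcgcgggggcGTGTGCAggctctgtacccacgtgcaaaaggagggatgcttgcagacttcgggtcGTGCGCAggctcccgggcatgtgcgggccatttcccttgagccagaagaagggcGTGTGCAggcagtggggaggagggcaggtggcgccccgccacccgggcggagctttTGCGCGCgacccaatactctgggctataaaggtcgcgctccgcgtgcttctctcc
Mt1 (chr19:10832976-10833225, minus strand): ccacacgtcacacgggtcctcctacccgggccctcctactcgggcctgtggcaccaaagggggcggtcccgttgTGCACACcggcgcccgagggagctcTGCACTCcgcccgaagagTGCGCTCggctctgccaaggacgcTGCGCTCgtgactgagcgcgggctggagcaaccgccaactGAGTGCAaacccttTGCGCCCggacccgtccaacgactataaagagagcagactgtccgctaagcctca
Slc30a1 (chr13:106021769-106022018, plus strand): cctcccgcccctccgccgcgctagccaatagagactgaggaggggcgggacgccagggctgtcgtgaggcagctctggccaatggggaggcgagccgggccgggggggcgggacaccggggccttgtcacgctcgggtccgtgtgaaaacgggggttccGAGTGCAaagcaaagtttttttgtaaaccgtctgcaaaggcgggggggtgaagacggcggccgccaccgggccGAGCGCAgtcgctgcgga
Slc39a5 (chr7:1414785-1415034, minus strand): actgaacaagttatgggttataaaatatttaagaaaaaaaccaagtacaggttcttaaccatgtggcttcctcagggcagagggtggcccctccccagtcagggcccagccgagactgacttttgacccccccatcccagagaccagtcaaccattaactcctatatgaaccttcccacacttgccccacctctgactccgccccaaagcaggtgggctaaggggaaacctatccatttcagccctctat
Mt2A had 4 matches, of which the nearest began 55 bases before the start. Mt1, the neighbouring metallothionein gene on chromosome 19, had 6 matches, again with 1 that began 55 bases before the start. Slc30a1 had 2 matches and Slc39a5 had 0. Among 33469 promoter entries of the same length, 20.6% held at least 1 match, 4.90% at least 2, 0.266% at least 4 and 0.0269% at least 6. Of the other genes, Mt3 had 3 matches, Mtf1 had 2, and Slc30a2 had 2 at one of its starts and 0 at the other. Among related transporters, the importer Slc39a7 had 4, as many as Mt2A, and Slc30a4, Slc30a5, Slc39a11 and Slc39a13 had 2 each. A match describes these letters only, and binding was not measured.

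Mt2A (ENSRNOG00000043098) encodes the metallothionein that is known to be induced in many tissues under stress. It stood at 21.0 and 34.4 TPM in the TP+hucMSC-Exs libraries, at 6.99 and 842 TPM in TP rats, and at 3.91 and 2.65 TPM in the Control libraries. All 4 libraries of crushed pancreas lay above both Control libraries, an order that 22% of the 11477 genes showed. The means were 27.7 ± 9.45 TPM in TP+hucMSC-Exs rats, 424 ± 590.4 TPM in TP rats and 3.28 ± 0.891 TPM in Control rats (SD, n = 2 each). The TP mean rests on replicate 2, since TP replicate 1 was 2.13 times the Control mean and TP replicate 2 was 257 times. The TP+hucMSC-Exs libraries were 6.41 and 10.5 times the Control mean. Against the median gene of each library, Mt2A lay 1.56 and 2.01 (log2) higher in the TP+hucMSC-Exs libraries and 1.01 and 4.82 higher in the TP ones, while Control stood at 0.49 and -0.49.

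**Figure D1:**
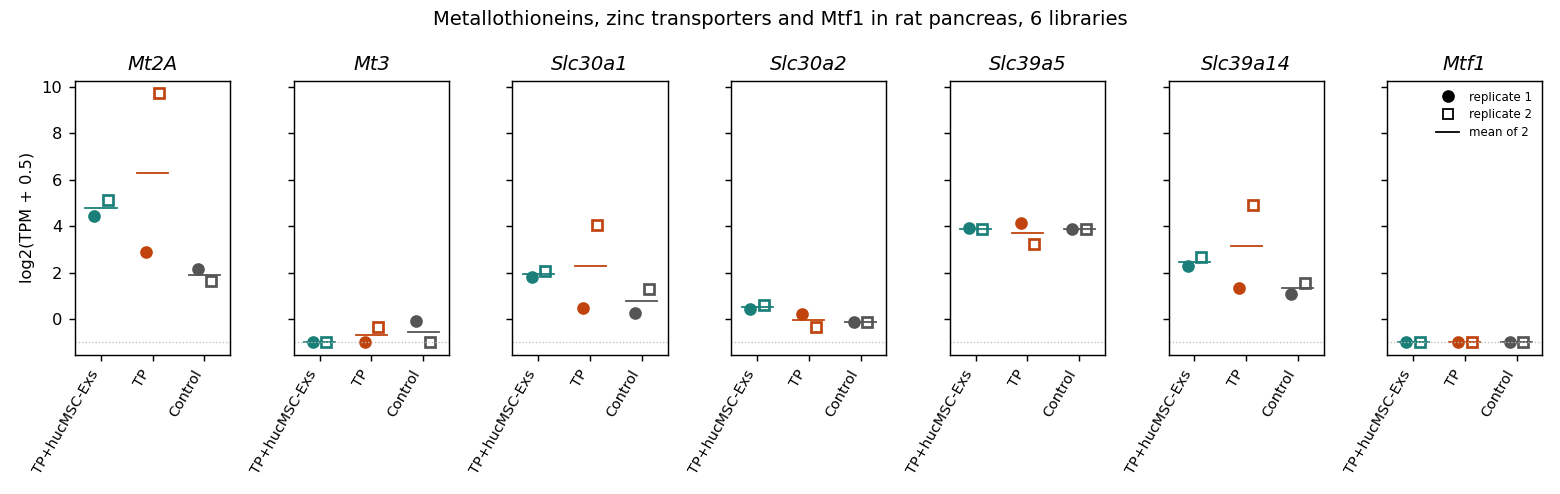
Level of each of the 7 genes as log2(TPM + 0.5) in the 6 libraries, by group; filled circles are replicate 1, open squares replicate 2, short lines the mean of 2, and the dotted line marks a TPM of 0. Mt2A lies above both Control libraries in all 4 libraries of crushed pancreas, and Mtf1 sits at 0 throughout. Slc39a5 is nearly level in the TP+hucMSC-Exs and Control libraries, and stands at 17.3 and 8.93 TPM in the TP ones.

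Mt1 (ENSRNOG00000038047), the other widely expressed metallothionein, separated the groups less. Mt1 stood at 15.9 and 38.5 TPM in the TP+hucMSC-Exs libraries, at 12.9 and 278 TPM in TP rats and at 16.1 and 8.35 TPM in the Control libraries, so that both injured groups overlapped with Control. Against the median gene Mt1 lay at -0.54 and 0.47 (log2) with TP+hucMSC-Exs, 0.14 and 1.52 with TP, and 0.69 and -0.69 in Control. The ratio of Mt2A to Mt1 within a library, which no scaling of the library alters, was 1.32 and 0.894 in the TP+hucMSC-Exs libraries, 0.544 and 3.02 in the TP ones, and 0.243 and 0.317 in Control. The ratio was higher in all 4 libraries of crushed pancreas than in both Control libraries. It was examined after the values were seen and is given without a test.

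A further row, AC128848.1, has no gene name, and its deposited protein annotation names a predicted mouse metallothionein. AC128848.1 stood at 11.3 and 11.97 TPM in the TP+hucMSC-Exs libraries, 6.81 and 84.7 TPM in TP rats and 3.53 and 5.96 TPM in the Control libraries. How the reads of such similar short genes were divided is not stated, so the split between them, and with it the ratio, is uncertain. The sum of Mt1, Mt2A and AC128848.1 depends less on that split among the 3, though TPM also divides by the length of each gene. It was 48.2 and 84.8 TPM in the TP+hucMSC-Exs libraries, 26.7 and 1205 TPM in TP rats, and 23.5 and 17.0 TPM in the Control libraries. Mt2A made up 43.6% and 40.5% of that sum in TP+hucMSC-Exs rats, 26.2% and 69.9% in TP rats, and 16.6% and 15.6% in Control rats.

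**Figure D2:**
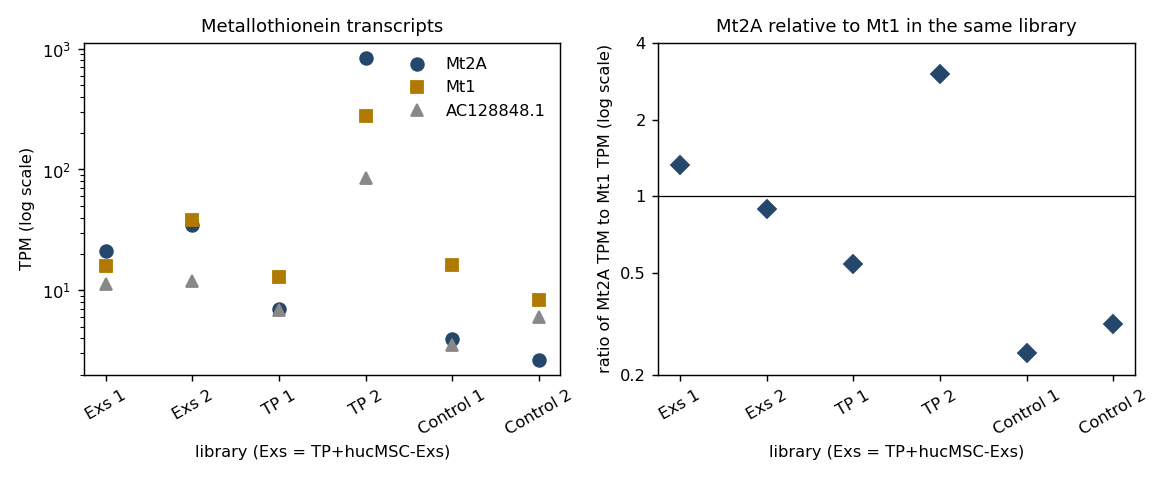
Left, TPM on a log axis of Mt2A, Mt1 and the unnamed metallothionein-like row AC128848.1 in each library; right, the ratio of Mt2A to Mt1 TPM in the same library, on a log axis with a line at 1. The ratio lies between 0.544 and 3.02 in the 4 libraries of crushed pancreas and at 0.243 and 0.317 in the Control libraries.

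Mt3 (ENSRNOG00000018958), the metallothionein best known from brain, was close to 0. Mt3 was listed at 0 in both TP+hucMSC-Exs libraries, at 0 and 0.28 TPM in TP rats, and at 0.43 and 0 TPM in the Control libraries. The skin and tongue metallothionein Mt4 and the gene Mt1m were listed at 0 in all 6 libraries. Mtf1 (ENSRNOG00000050240) was also listed at 0 in all 6, 1 of 14485 genes of the table so listed, so no Mtf1 level can be set beside its targets. The cause of that 0 was not tested, while 15 housekeeping genes that were looked up were all above 0.

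Markers of other cell types also differed between the libraries, but of these sums only that of duct cells ranked the libraries as Mt2A did. The macrophage and neutrophil sums were higher in Control replicate 2 than in TP replicate 1, whereas Mt2A was lower there. The 8 macrophage markers summed to 407 and 755 TPM in the TP+hucMSC-Exs libraries, 55.4 and 4622 TPM in TP rats and 18.2 and 143 TPM in the Control libraries, with none at 0. The 6 neutrophil markers summed to 56.9 and 103 TPM with TP+hucMSC-Exs, 3.02 and 480 TPM with TP and 0.50 and 3.09 TPM in Control, and the myeloid enzyme Mpo was at 0 in both TP+hucMSC-Exs libraries and TP replicate 1. The 6 fibroblast markers found, of 7, summed to 150 and 148 TPM with TP+hucMSC-Exs, 78.1 and 4389 TPM with TP and 30.5 and 72.2 TPM in Control. The 8 duct cell markers summed to 251 and 352 TPM with TP+hucMSC-Exs, 66.4 and 581 TPM with TP and 35.3 and 34.5 TPM in Control, with none at 0. The adipocyte sum was 1.05 and 1.52 times the Control mean in the TP+hucMSC-Exs libraries, with 2 and 3 of its 8 markers at 0. The 7 lymphocyte markers summed to 2.68 and 4.62 TPM with TP+hucMSC-Exs, 0.25 and 45.3 TPM with TP and 0.18 and 35.5 TPM in Control. Of these 7, 6 were at 0 in TP replicate 1, 5 in Control replicate 1 and 2 in TP+hucMSC-Exs replicate 1. The part of all these cells in the level of Mt2A was not tested.

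Slc30a1 (ENSRNOG00000004749) encodes the exporter of the cell membrane, a known target of Mtf1. It stood at 3.01 and 3.75 TPM in the TP+hucMSC-Exs libraries, 0.89 and 16.1 TPM in TP rats and 0.70 and 1.93 TPM in the Control libraries. The TP+hucMSC-Exs libraries were above both Control libraries, while TP replicate 1 lay between the Control libraries and TP replicate 2 above all others. Against the median gene, Slc30a1 lay within 0.30 (log2) in every library, from -0.30 in TP replicate 1 to 0.28 in TP replicate 2. Its differences in TPM were thus close in size to those of the median gene.

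Slc30a2 (ENSRNOG00000054142) encodes the exporter that, in mouse, loads zinc into the zymogen granules of acinar cells. Slc30a2 stood at 0.86 and 1.03 TPM in the TP+hucMSC-Exs libraries, 0.68 and 0.30 TPM in TP rats and 0.41 and 0.42 TPM in the Control libraries. Both TP+hucMSC-Exs libraries lay above the other 4, an order shown by 4.65% of the genes that passed the filter, which Slc30a2 did not. In a limma fit without the filter its log2 fold change was 0.57 ± 0.80 (SE) for TP+hucMSC-Exs against TP and 0.66 ± 0.80 against Control, with adjusted p of 1 and 0.936. In TP replicate 2, where the median gene was 3.00 (log2) over Control, Slc30a2 was 0.723 times its Control mean.

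Slc39a5 (ENSRNOG00000033361) encodes an importer known in mouse from the basal membrane of acinar and gut cells, and was the most abundant member in Control pancreas. It stood at 14.7 and 14.1 TPM in the TP+hucMSC-Exs libraries, 17.3 and 8.93 TPM in TP rats and 14.2 and 14.1 TPM in the Control libraries. TP replicate 2 was the low library and TP replicate 1 the high one, and the other 4 lay between 14.1 and 14.7 TPM. The means were 14.4 ± 0.417 TPM in TP+hucMSC-Exs rats, 13.1 ± 5.90 TPM in TP rats and 14.1 ± 0.0566 TPM in Control rats (SD, n = 2 each). Against the median gene Slc39a5 lay 0.91 and 1.22 (log2) lower in the TP+hucMSC-Exs libraries, and in the TP libraries it lay at 0.28 and -3.64.

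Slc39a5 was set beside the acinar cell markers. In TP replicate 2 it was 0.633 times the Control mean, close to the acinar transcription factors Ptf1a at 0.641 times and Rbpjl at 0.615 times, while Bhlha15, a factor of secretory maturation, was 0.380 times. The 7 digestive enzymes among the markers were 0.215 to 0.331 times their Control means in that library. In TP replicate 1 Slc39a5 was 1.22 times its Control mean, Ptf1a 1.56, Rbpjl 1.47 and Bhlha15 1.14 times, and the enzymes were 0.785 to 1.15 times theirs. In the TP+hucMSC-Exs libraries Slc39a5 was 1.04 and 1.002 times its Control mean, and the enzymes were 0.475 to 1.09 and 0.330 to 1.04 times theirs. Ptf1a was 2.19 and 2.32 times its own there, Rbpjl 1.35 and 1.35 times, and Bhlha15 1.15 and 0.896 times. The summed acinar markers were 421584 and 387941 TPM in the TP+hucMSC-Exs libraries, 467078 and 125650 TPM in TP rats and 518930 and 496222 TPM in the Control libraries, and the part of acinar cell number in the level of Slc39a5 was not tested.

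**Figure D3:**
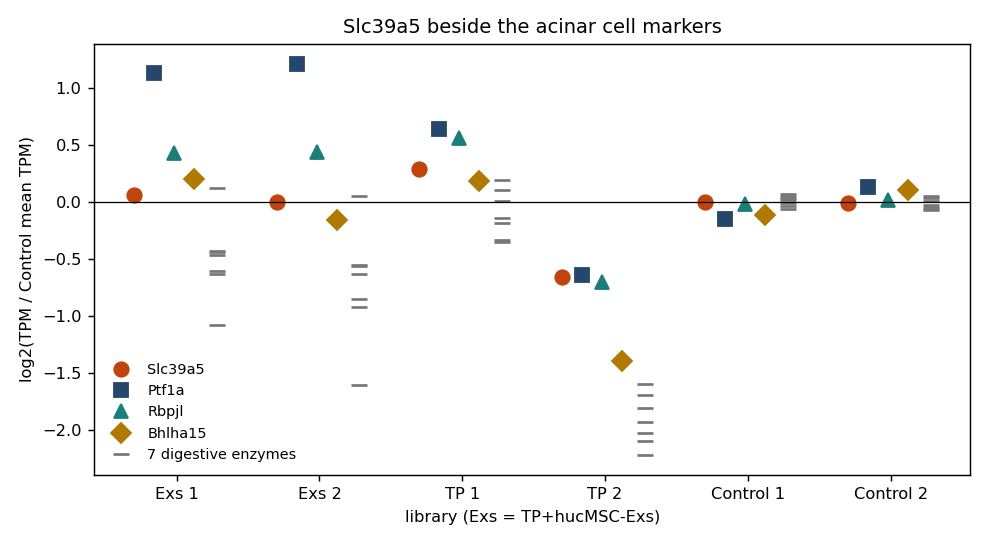
Log2 ratio of TPM to the Control mean in each library for Slc39a5, the acinar transcription factors Ptf1a, Rbpjl and Bhlha15, and 7 digestive enzymes (grey dashes), offset sideways for legibility. In TP replicate 2 Slc39a5, at 0.633 times the Control mean, lies with Ptf1a and Rbpjl, and above Bhlha15, at 0.380 times, and all 7 enzymes. In the TP+hucMSC-Exs libraries and TP replicate 1 it lies below Ptf1a and Rbpjl.

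Slc39a14 (ENSRNOG00000009832) encodes an importer of zinc that also carries iron and manganese and is induced by interleukin-6 in mouse liver. It stood at 4.39 and 5.80 TPM in the TP+hucMSC-Exs libraries, 2.02 and 29.9 TPM in TP rats and 1.64 and 2.40 TPM in the Control libraries. The TP+hucMSC-Exs libraries were above both Control libraries, and TP replicate 1 lay between the Control libraries. Against the median gene Slc39a14 lay at 0.00 and 0.12 (log2) in the TP+hucMSC-Exs libraries, 0.02 and 0.61 in the TP ones, and 0.02 and -0.02 in Control. The ratio of Slc39a14 to Slc39a5 was 0.298 and 0.410 in TP+hucMSC-Exs rats, 0.117 and 3.35 in TP rats, and 0.116 and 0.171 in Control rats.

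The order of levels among the members differed between groups. In TP+hucMSC-Exs rats Mt2A came first, followed by Slc39a5, Slc39a14, Slc30a1 and Slc30a2, and no neighbours in that order overlapped. In TP rats Mt2A, Slc39a14, Slc39a5 and Slc30a1 had means of 424, 16.0, 13.1 and 8.51 TPM, and the libraries of each overlapped with those of the next. In Control rats the order was Slc39a5, Mt2A, Slc39a14, Slc30a1 and Slc30a2, and only Slc39a14 and Slc30a1 overlapped.

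The 4 members that passed the filter were tested with limma on log2(TPM + 0.5), in 1 fit of all 11477 genes and 6 libraries. In that fit each gene was given the spread of genes at its level, and its own spread did not enter its SE. With 2 libraries against 2, an exact permutation test of a single gene cannot give a two-sided p below 0.333. What the exosomes changed in crushed pancreas is asked by TP+hucMSC-Exs against TP, in which 0 of 4 members passed an adjusted p of 0.05, and 0 had an unadjusted p below 0.05. Of all genes, 0.0697% passed in that comparison. Mt2A had a log2 fold change of -1.54 ± 1.39 (SE), Slc39a14 of -0.66 ± 1.43, Slc30a1 of -0.32 ± 1.43 and Slc39a5 of 0.21 ± 1.41, beside a median of -0.38 over all genes (limma, adjusted p = 1 for each). The TP+hucMSC-Exs libraries of all 4 lay between the TP libraries, while 5.09% of genes had both TP+hucMSC-Exs libraries above both TP libraries and 1.62% had both below. Without TP replicate 1, 3 members were lower, Mt2A by a log2 fold change of -4.94 (limma adjusted p = 0.00195), Slc39a14 of -2.45 (adjusted p = 0.00815) and Slc30a1 of -2.11 (adjusted p = 0.0195), while 79.5% of all genes were then called lower and the median was -1.88. Without TP replicate 2 the same 3 stood at 1.87, 1.14 and 1.47 with adjusted p of 0.0619, 0.0944 and 0.0956, beside a median of 1.10, so the direction depended on which TP rat was kept. With either TP library left out, the lone TP library is assumed to vary like the other groups, whose spread alone gives these p-values.

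For TP+hucMSC-Exs against Control, which sets treated crushed pancreas against handled pancreas, 0 of 4 members passed and 1, Mt2A, had an unadjusted p below 0.05, while 0.209% of all genes passed. Mt2A had a log2 fold change of 2.88 ± 1.39 (SE; limma adjusted p = 0.800). Slc30a1 had one of 1.18 ± 1.43, Slc39a14 of 1.16 ± 1.43 and Slc39a5 of 0.03 ± 1.41, beside a median of 1.09 over all genes. Both TP+hucMSC-Exs libraries of 3 of the 4 members, all but Slc39a5, lay above both Control libraries, as did those of 86.9% of genes. Without TP replicate 1 or 2, which this contrast does not use but whose difference enters the shared variance, 2 members passed: Mt2A (limma adjusted p = 0.0174 and 0.0152) and Slc39a14 (adjusted p = 0.0433 and 0.0445). In those fits 52.5% and 52.4% of all genes passed. Both also passed with only the TP+hucMSC-Exs and Control groups in the fit (adjusted p = 0.0129 and 0.0456), where 52.8% of all genes did. With median-of-ratios scaling, which takes out most of the shift of the whole library, Mt2A stood at 1.53 ± 1.17 (SE; adjusted p = 0.718), Slc39a14 turned to -0.09 and Slc39a5 to -1.38.

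For TP against Control, which asks what the crush changed, 0 of 4 members passed and 1, Mt2A, had an unadjusted p below 0.05, while 0.0523% of all genes passed. Without the filter, where a gene's own spread also entered, the unadjusted p of Mt2A was 0.0675 (limma). Mt2A had a log2 fold change of 4.41 ± 1.39 (SE; limma adjusted p = 0.555) and was the 1 member of 4 whose TP libraries both lay above Control, as those of 23.1% of genes did. Slc39a14 had one of 1.81 ± 1.43, Slc30a1 of 1.49 ± 1.43 and Slc39a5 of -0.17 ± 1.41, beside a median of 1.495 over all genes. Without TP replicate 1 the values were 7.82 for Mt2A, 3.61 for Slc39a14 and 3.28 for Slc30a1, each past the threshold (limma adjusted p = 0.000483, 0.00119 and 0.00271), while 91.5% of all genes were called higher and the median was 3.00. Without TP replicate 2 Mt2A stood at 1.01, Slc39a14 at 0.02, Slc30a1 at -0.30 and Slc39a5 at 0.28, and 0 members passed.

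**Figure D4:**
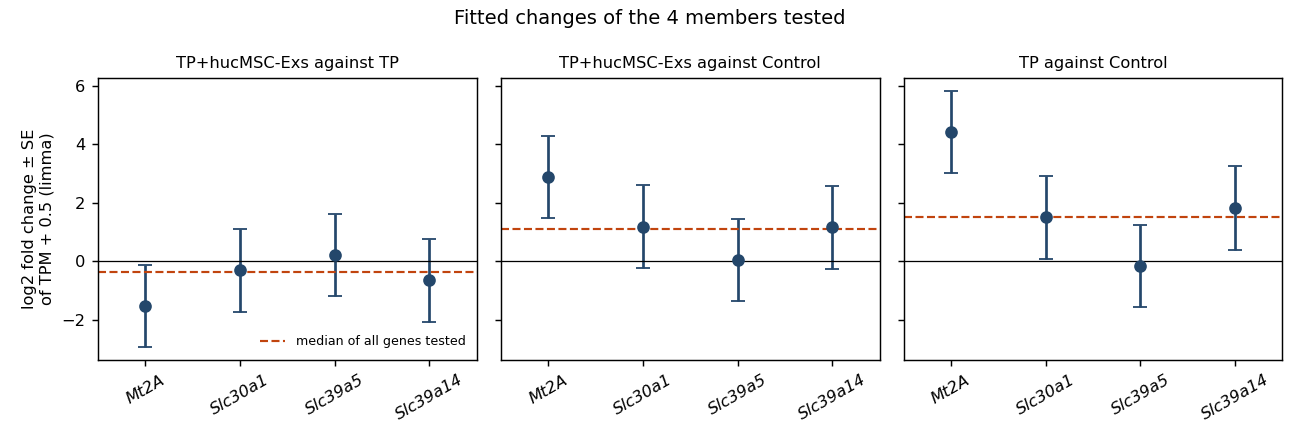
Log2 fold change with its SE from limma for Mt2A, Slc30a1, Slc39a5 and Slc39a14 in the 3 comparisons; the dashed line is the median of all 11477 genes. Slc30a1 and Slc39a14 lie near the dashed line in each, Mt2A lies above it in both comparisons with Control, and Slc39a5 lies near 0.

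The other members of both transporter families gave a frame for these values. Of 8 other exporters 5 passed the filter and 0 passed the test in any of the 3 comparisons with limma, nor had any an unadjusted p below 0.05. Their median log2 fold change was -0.48 for TP+hucMSC-Exs against TP, 0.83 for TP+hucMSC-Exs against Control and 1.31 for TP against Control. Slc30a7 and Slc30a5, exporters of the early secretory pathway, were the most abundant of them. Slc30a7 stood at 5.47 and 5.37 TPM in the TP+hucMSC-Exs libraries, 1.87 and 18.1 TPM in TP rats and 1.01 and 2.63 TPM in the Control libraries. Slc30a5 stood at 3.48 and 4.27 TPM with TP+hucMSC-Exs, 2.93 and 18.8 TPM with TP and 1.65 and 3.08 TPM in Control. Both lay within 0.49 (log2) of the median gene in every library.

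Slc30a8, the exporter of insulin granules, lay below the filter at 0.63 and 0.21 TPM in the TP+hucMSC-Exs libraries, 0.13 and 0.16 TPM in TP rats and 0.52 and 0.11 TPM in the Control libraries. The 8 islet markers, which include the insulin genes, summed to 2936 and 1360 TPM with TP+hucMSC-Exs, 989 and 301 TPM with TP and 2097 and 326 TPM in Control. The 2 libraries with the highest Slc30a8 were those with the highest islet sum, and both were replicate 1 of their group.

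Of 12 other importers 9 passed the filter and 0 passed the test in any comparison with limma, nor had any an unadjusted p below 0.05. Their median log2 fold change was -0.58 for TP+hucMSC-Exs against TP, 1.25 for TP+hucMSC-Exs against Control and 1.58 for TP against Control. Slc39a7, which releases zinc from the endoplasmic reticulum, was the most abundant importer in every library, at 46.2 and 49.9 TPM in the TP+hucMSC-Exs libraries, 26.6 and 119 TPM in TP rats and 24.9 and 28.4 TPM in the Control libraries. Slc39a1, an importer of the cell membrane, stood at 18.4 and 25.1 TPM in the TP+hucMSC-Exs libraries, 4.28 and 107 TPM in TP rats and 3.08 and 4.48 TPM in the Control libraries. Against the median gene Slc39a1 lay 1.19 and 1.38 (log2) higher in the TP+hucMSC-Exs libraries and 0.18 and 1.67 higher in the TP libraries, with an adjusted p of 0.800 in limma for TP+hucMSC-Exs against Control.

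The place of Slc39a5 among the 14 importers followed from these levels. Slc39a5 was the third most abundant in both TP+hucMSC-Exs libraries, after Slc39a7 and Slc39a1. It was the second and the tenth in TP replicates 1 and 2, and the second in both Control libraries. It made up 14.01% and 11.8% of the summed importer TPM in TP+hucMSC-Exs rats, 28.2% and 2.38% in TP rats, and 27.1% and 22.7% in Control rats. That sum was 105 and 120 TPM in TP+hucMSC-Exs rats, 61.4 and 375 TPM in TP rats, and 52.2 and 62.1 TPM in Control rats. With Slc39a5 itself nearly level, its smaller share in TP+hucMSC-Exs libraries came with higher values of the other importers, 8 of 9 of which lay above both Control libraries, where 86.9% of all genes did.

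**Figure D5:**
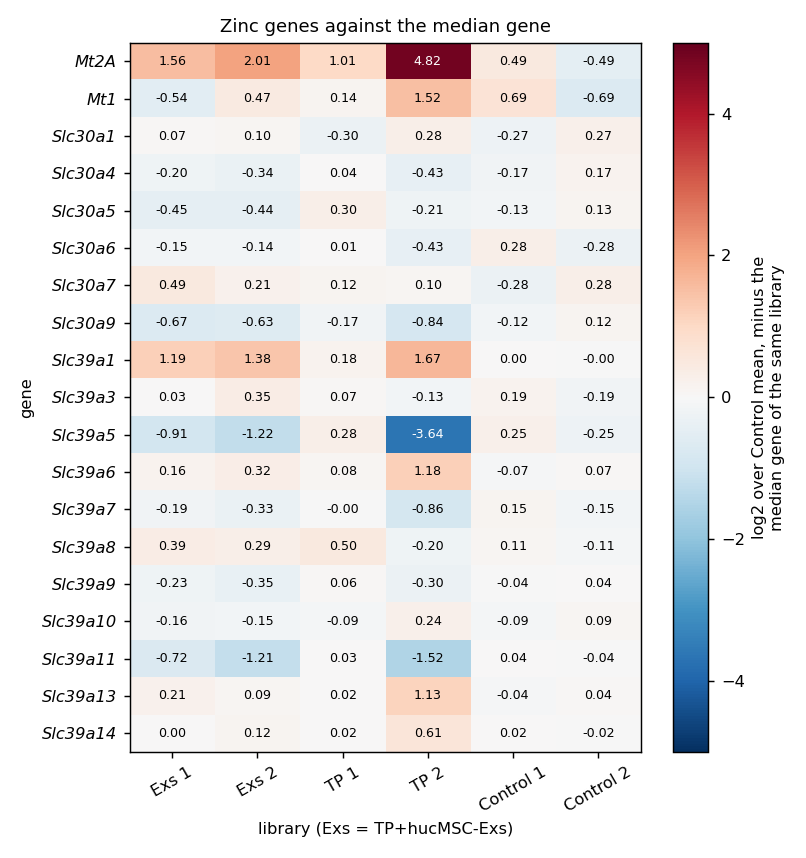
Log2 level over the Control mean minus that of the median gene of the same library, for the metallothionein and zinc transporter genes with a gene name that passed the filter (rows) in 6 libraries (columns); red is higher and blue lower than the median gene, and each cell prints its value. Mt2A is red in all 4 libraries of crushed pancreas, Slc39a5 is blue in 3 of them, and Slc30a1 and Slc39a14 are pale in most cells.

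Genes of signals known to act on metallothionein genes were listed beside them. Of 10 genes of the interleukin-6 pathway 9 passed the filter. Against TP, TP+hucMSC-Exs had 0 of 9 past the threshold and 1, Hamp, had an unadjusted p below 0.05 (limma adjusted p = 0.0557). Lcn2 and Hamp were called higher in TP+hucMSC-Exs against Control, where 0.209% of all genes passed. Lcn2 was also called higher in TP against Control, where 0.0523% did. These calls depended on the setting. Without the filter 0 genes were called in any comparison, and with median-of-ratios scaling 0 were called for TP against Control. Hamp passed the filter only through the TP+hucMSC-Exs libraries, where it was high. Lcn2, an iron-scavenging secreted protein, stood at 431 and 632 TPM in the TP+hucMSC-Exs libraries, 216 and 560.0 TPM in TP rats and 2.88 and 2.78 TPM in the Control libraries (limma adjusted p = 1.95e-05 for TP+hucMSC-Exs and 0.000528 for TP, each against Control). Hamp, which encodes the iron hormone hepcidin, stood at 26.3 and 55.0 TPM in the TP+hucMSC-Exs libraries, 0 and 0.40 TPM in TP rats and 0 in both Control libraries (limma adjusted p = 0.0137 for TP+hucMSC-Exs against Control). Stat3, the transcription factor of the pathway, stood at 17.6 and 23.3 TPM with TP+hucMSC-Exs, 5.67 and 61.5 TPM with TP and 4.65 and 7.88 TPM in Control, with 0 calls. The median of the list was -0.06, 1.66 and 1.66 for TP+hucMSC-Exs against TP, TP+hucMSC-Exs against Control and TP against Control. Over all genes the medians were -0.38, 1.09 and 1.495 in that order.

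Of 8 genes of the glucocorticoid response 7 passed the filter and 0 passed the test in any comparison with limma, nor had any an unadjusted p below 0.05. Their median log2 fold change was -0.60 for TP+hucMSC-Exs against TP, 0.46 for TP+hucMSC-Exs against Control and 0.88 for TP against Control, each below the median of all genes. Tsc22d3, a glucocorticoid-induced leucine zipper, stood at 5.54 and 6.33 TPM in the TP+hucMSC-Exs libraries, 3.33 and 34.1 TPM in TP rats and 5.89 and 10.7 TPM in the Control libraries. Dusp1, a phosphatase that glucocorticoids induce, stood at 4.70 and 6.85 TPM with TP+hucMSC-Exs, 0.72 and 32.8 TPM with TP and 1.41 and 2.65 TPM in Control.

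Cpb1 and Cpa1, zinc-carrying carboxypeptidases of the zymogen granule, were each lower in both TP+hucMSC-Exs libraries than in both Control libraries, an order in 1.63% of all genes. The digestive enzymes Prss1, Cela2a, Pnlip and Cel had the same order. In all, 6 of the 10 acinar markers had it and 2 had the reverse. Cpb1 was also lower in both TP libraries than in both Control libraries, an order in 1.09% of all genes. Neither Cpb1 nor Cpa1 passed the test in any comparison with limma, and neither had an unadjusted p below 0.05. Cpb1 stood at 24213 and 22725 TPM in the TP+hucMSC-Exs libraries, 29435 and 9530 TPM in TP rats and 32095 and 34631 TPM in the Control libraries. Cpa1 stood at 18777 and 16381 TPM with TP+hucMSC-Exs, 29103 and 8402 TPM with TP and 26082 and 24732 TPM in Control.

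The genes most like each member over the 6 libraries were found by the Pearson correlation of log2(TPM + 0.5) among 9995 genes with a proper symbol. With 6 points that share their libraries and the shift of TP replicate 2, these values serve as a description only. Mt2A was most like Gpr4, Pomp and Ercc1 (r = 0.999 for each), Slc30a1 most like Ccar2, Gstcd and Vav2 (r = 1.000 for each), and Slc39a14 most like Gtf2f1, Mlx and Cebpa (r = 1.000 for each). Slc39a5 was most like Kcne1, Pnliprp1 and Tesc (r = 0.990, 0.986 and 0.981). Pnliprp1, a lipase-related protein of acinar cells, stood at 7956 and 7091 TPM in the TP+hucMSC-Exs libraries, 12203 and 3370 TPM in TP rats and 8397 and 8123 TPM in the Control libraries. Like Slc39a5, it was highest in TP replicate 1 and lowest in TP replicate 2.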

How the data were processed

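RNA of rat pancreas was sequenced in 6 libraries, 2 per group. Libraries were prepared with a SMARTer mRNA-seq kit, per the labels' protocols. The authors deposited TPM per gene; which aligner and quantification program made them is not stated. GRCm38 and mm10, both mouse builds, are named per the submitters' processing notes, while 32883 of 34001 genes have rat Ensembl identifiers. The deposited TPM columns share 1 total and hold no depth, so no counting error can be given. The column names of the TP libraries carry a number that no label explains, and they were assigned by group name and replicate number. The deposited gene length and the authors' 3 group-mean TPM columns entered no test.

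Genes whose mean TPM reached 1 were fitted as log2(TPM + 0.5), a scale that understates changes of low genes, with limma 3.58.1 in R 4.3.3 (1 model over the 3 groups, variance trend, 3 residual degrees of freedom). Adjustment was by Benjamini-Hochberg over all 11477 genes. P-values of the main fit measure the spread between the 2 rats of each group, pooled over groups and over genes of like level. The prior degrees of freedom were estimated as infinite there, so a gene's own spread did not enter its SE or p-value. The TP pair adds most to the pooled spread. A group left with 1 library is assumed to vary like the others. The code was tested on simulated data. Alternatives were other pseudocounts, filters, scalings and fits, and leaving out each library. The members and lists were chosen with earlier results of these data known. Named genes are all members and, per list, genes past the threshold and the 2 of highest mean TPM. AC128848.1, Slc30a8, Pnliprp1, Mpo and the acinar factors were singled out after their values were seen. Promoter sequences came from RefSeq (GRCr8). A withheld item is not reported here.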

Additional observations from a re-analysis of the deposited data

How the results depend on the processing

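Depth is unknown and each group has 2 rats, so the limits are those of a small sample. The direction and side of the threshold held in 38 of 45 alternatives for Mt2A, 37 of 45 for Slc39a14, 38 of 45 for Slc39a5 and 34 of 42 for Slc30a1, taken over the 3 comparisons, and no cause was tested for those that moved. The number of members called stayed at 0 in 40 of 45.

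The count of all genes called depended on the setting. It was 8 for TP+hucMSC-Exs against TP, and became 0 without the filter (315 at an unadjusted p below 0.05), 0 with TPM rescaled without digestive enzymes (334 unadjusted), 2 with median-of-ratios scaling, 1 with only the 2 groups in the fit, and 0 to 9537 when 1 library was left out. It was 24 for TP+hucMSC-Exs against Control, and became 12 with a pseudocount of 1, 0 without the filter (368 unadjusted), 5 with rescaling, 2 with median-of-ratios scaling, 6056 with only the 2 groups, and 1 to 6031 when 1 library was left out. For TP against Control it was 6, and became 14 with a pseudocount of 0.1, 0 without the filter (160 unadjusted), 2 with rescaling, 0 with median-of-ratios scaling (668 unadjusted), 0 with only the 2 groups (85 unadjusted), and 0 to 10706 when 1 library was left out. Median-of-ratios scaling without TP replicate 2, an alternative chosen after seeing the data, gave 19, 154 and 17 genes in the 3 comparisons in that order. The number of members called was 0 to 3 in both comparisons that use TP when 1 library was left out, with 3 without TP replicate 1. For TP+hucMSC-Exs against Control the number was 2 with only the 2 groups and 0 to 2 when 1 library was left out.

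Directions turned as follows. For TP+hucMSC-Exs against TP, leaving out 1 library gave log2 fold changes of -4.94 to 1.87 for Mt2A, -2.11 to 1.47 for Slc30a1, -0.25 to 0.66 for Slc39a5 and -2.45 to 1.14 for Slc39a14. Median-of-ratios scaling gave 0.087 for Slc30a1, and without TP replicate 2 it gave 0.46 for Mt2A, 0.36 for Slc30a1 and -1.68 for Slc39a5. For TP+hucMSC-Exs against Control, Slc39a5 was -1.13 with rescaling and -1.38 with median-of-ratios scaling, with or without TP replicate 2, and Slc39a14 was -0.092 in both of those. For TP against Control, leaving out 1 library gave -0.30 to 3.28 for Slc30a1 and -0.63 to 0.28 for Slc39a5. Median-of-ratios scaling gave -0.023 for Slc30a1, and without TP replicate 2 it gave -0.30 for Slc30a1 and 0.31 for Slc39a5.

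Same-numbered libraries deviated together with correlations of 0.135 (TP+hucMSC-Exs and TP), 0.0804 (TP+hucMSC-Exs and Control) and 0.279 (TP and Control), not above 0.1 in each pair, and no label says what the numbers mark, so they were not taken as pairs. With the replicate block 22 genes were called for TP+hucMSC-Exs against TP, 35 for TP+hucMSC-Exs against Control and 10 for TP against Control, and 0 members in each.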
